A study of Mus musculus with 208 samples.

Results

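Read counts of 8 genes were followed across every library of neuronal nuclei, 5 of them known for their expression in the choroid plexus (Ttr, Folr1, Kl, Clic6 and Enpp2) and 3 in the endothelium of blood vessels (Cldn5, Flt1 and Pecam1). They were taken by symbol from the count tables, which list 46403 genes in each region, and all 8 were found in the table of each of the 4 regions. The libraries hold nuclear RNA from about 5000 nuclei that were sorted for NeuN, a protein of neuronal nuclei, and the sort does not aim at choroid plexus or endothelium. Wild type C57BL/6NTac mice of both sexes were exposed to morphine or saline before and after birth and received LPS (lipopolysaccharide, a bacterial component that provokes inflammation) or saline as adults, 2 h before tissue collection. The adult age is not given in the labels.

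In the morphine arms the dams received 10 mg/kg per day from a minipump and the pups 10 mg/kg 2 times a day from postnatal day 1 to 14, and all pups were raised by drug-naive surrogates. Each arm is named by the perinatal exposure and then the adult challenge. Libraries of the hypothalamus numbered 11 for SAL-SAL, 14 for MOR-SAL, 12 for SAL-LPS and 14 for MOR-LPS, those of the hippocampus 13, 12, 14 and 16, the prefrontal cortex (PFC) 10, 12, 10 and 16, and the striatum 13, 8, 15 and 18, in the same order. A library was made from 1 animal and 1 region. The 71 animals came from 18 litters, where the first number of an animal's identifier is the litter by the study's sample key. The study's methods state a higher number of distinct litters, broken down by arm. No litter held both exposures, so litter and exposure cannot be told apart. The regions were taken with a 2.0 mm punch, on both sides per the labels, and the study's methods name adjacent punches for the hypothalamus.

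The choroid plexus is the folded epithelium that hangs in the brain ventricles and secretes cerebrospinal fluid, and its cells make transthyretin at very high levels. It lies against the hippocampus and dorsal thalamus and in the roof of the third ventricle. Endothelial cells line the vessels of all brain regions, and their tight junctions form the blood-brain barrier.

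The genes differ in how specific they are. Transthyretin (Ttr, mm10 chr18:20665280-20674321) carries thyroid hormone and retinol-binding protein, and the folate receptor Folr1 (chr7:101858331-101870788) takes folate into the cerebrospinal fluid. Klotho (Kl, chr5:150952607-150993817) is a co-receptor of the hormone FGF23 and is also made by neurons. Clic6 (chr16:92485736-92541243) belongs to the chloride intracellular channel family, and Enpp2 (chr15:54838901-54952892) encodes autotaxin, the enzyme that makes lysophosphatidic acid and that oligodendrocytes make as well. Cldn5 (chr16:18776847-18778262) is the main claudin of endothelial tight junctions, Flt1 (chr5:147561604-147726011) a receptor of VEGF and Pecam1 (chr11:106654217-106750628) an adhesion molecule at endothelial contacts. An exon of Enpp2 overlaps one of Gm26684 on the opposite strand, and since the use of strand in counting is not given, reads of Enpp2 and Gm26684 cannot be told apart.

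The total count per library ranged from 7673 to 35077048 in the hypothalamus (median 5543589) and from 227025 to 92945090 in the other regions. A library with a total under 0.5 of its region's median was called low in depth, which held for 8 libraries, 3 of them hypothalamic. A count of 0 allows up to 3 reads, or 0.541 CPM at the median hypothalamic total, for counting error alone, where CPM is the count scaled by the library's total. In 9 libraries, 3 of them hypothalamic, the Y-linked genes went against the labelled sex, and calls between arms or regions that are lost without them are named. The tests of a difference between regions in the effect of morphine or LPS were not run without them. The libraries labelled PFC held genes of striatal projection neurons at levels like those of the striatum. Adora2a, an adenosine receptor, had a median of 41.9 CPM in the PFC and 47.7 CPM in the striatum against 0.220 CPM in the hippocampus and 0 in the hypothalamus.

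Among the choroid plexus genes, Enpp2 had at least 1 read in every library, Kl in 187, Clic6 in 173, Ttr in 157 and Folr1 in 41. Ttr was uneven. It reached 10 reads in 104 libraries, its median was 1.07 CPM, and its highest value was 477 CPM in a hippocampal MOR-SAL library. Folr1 never exceeded 6.57 CPM and reached 10 reads in 16 libraries. Enpp2, by contrast, was counted at 0.867 to 711 CPM with a median of 55.1 CPM. Of the endothelial genes, Pecam1 was detected in 164 libraries, Flt1 in 133 and Cldn5 in 64, with medians of 0.683, 0.282 and 0 CPM and highest values of 8.12, 16.0 and 4.23 CPM. On the scale of CPM per kb of exon, on which genes can be compared, the hypothalamic medians were 9.53 for Enpp2, 0.718 for Ttr, 0.422 for Clic6, 0.332 for Kl, 0.0856 for Pecam1 and 0.0204 for Flt1, with Folr1 and Cldn5 at 0.

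**Figure D1:**
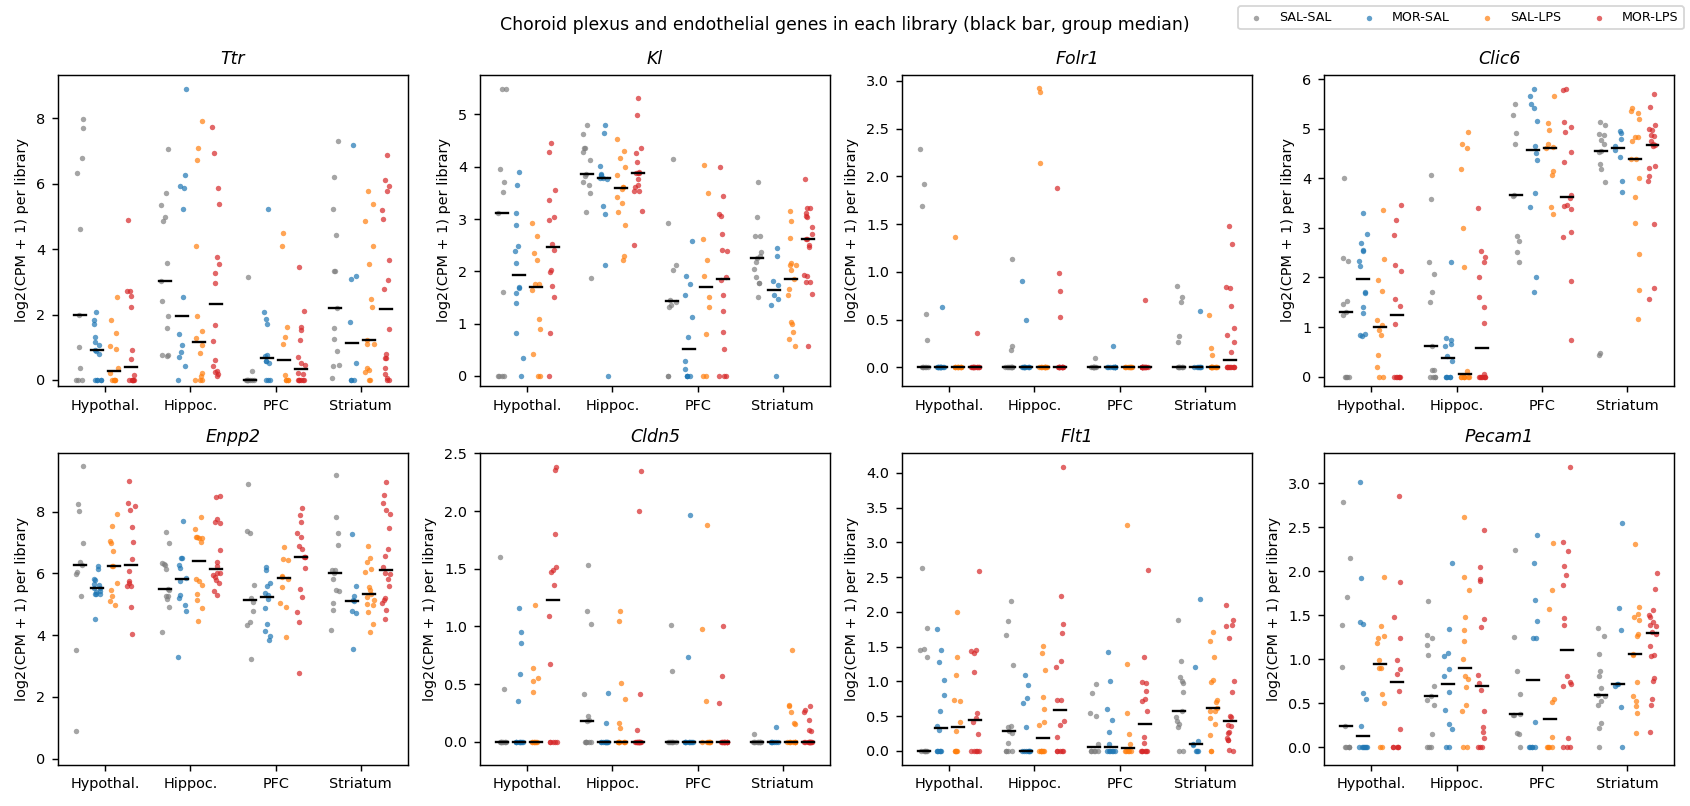
Level of each gene in each library as log2(CPM + 1), by region and arm, where each point is 1 library and the black bar the median of the arm. Ttr spreads from 0 to 477 CPM within arms, and Enpp2 runs from 0.867 to 711 CPM over all libraries with similar medians in every region. Clic6 has its highest medians in the PFC and striatum, and Folr1 and Cldn5 are at 0 in most libraries.

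Clic6 and Kl had clear differences between regions. Clic6 had medians of 24.1 CPM in the striatum (0.345 to 51.5), 19.4 CPM in the PFC (0.677 to 54.9), 1.65 CPM in the hypothalamus (0 to 15.2) and 0.244 CPM in the hippocampus (0 to 29.4). The PFC and striatum had the higher medians, and the ranges of all regions overlapped. In a joint edgeR quasi-likelihood fit of all libraries, the hypothalamus was lower than the other 3 regions on average by a log2 difference of −2.26 (SE 0.35, adjusted p = 2.11e-09). Of the neighbours in this order, the hypothalamus was lower than the PFC (−3.30, SE 0.40, adjusted p = 6.95e-14). The other neighbours did not differ beyond their spread, at 0.07 (SE 0.35, adjusted p = 0.898) for PFC against striatum and −0.27 (SE 0.39, adjusted p = 0.569) for hypothalamus against hippocampus. In both of these the fitted sign was opposite to that of the medians. Regions differ in most genes, since 68.8% of the 22230 genes tested were called between the hypothalamus and the other 3, with a median of 0.21 over all genes. Against that background 2 of the 8 genes were called, Clic6 lower and Cldn5 higher, at 1.60 (SE 0.45, adjusted p = 8.27e-04). Among SAL-SAL libraries alone Cldn5 was not called (1.04, adjusted p = 0.240).

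Kl was highest in the hippocampus, with a median of 12.9 CPM (0 to 39.1) against 3.34 CPM in the striatum (0 to 12.6), 3.10 CPM in the hypothalamus (0 to 43.9) and 1.79 CPM in the PFC (0 to 16.8). The hippocampus exceeded each of the others, by 1.84 (SE 0.30, adjusted p = 4.32e-08) over the striatum, 2.11 (SE 0.31, adjusted p = 2.56e-09) over the PFC, and with the hypothalamus lower at −1.47 (SE 0.30, adjusted p = 7.36e-06). No pair among the last 3 regions in this order was called. Among SAL-SAL libraries alone, Kl was called neither between hippocampus and striatum (1.68, adjusted p = 0.0775) nor between hypothalamus and hippocampus (−0.90, adjusted p = 0.307).

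Ttr followed the order hippocampus (median 2.88 CPM, detected in 51 of 55 libraries), striatum (2.24 CPM, 47 of 54), hypothalamus (0.852 CPM, 32 of 51) and PFC (0.184 CPM, 27 of 48). The hippocampus and striatum differed by 1.09 (SE 0.57, adjusted p = 0.116), the hypothalamus and striatum by −1.39 (SE 0.65, adjusted p = 0.0528) and the hypothalamus and PFC by 1.38 (SE 0.73, adjusted p = 0.0866), so no neighbours in this order were called. The hypothalamus was lower than the hippocampus over all arms (−2.47, SE 0.70, adjusted p = 0.00103), but among SAL-SAL libraries alone the sign was the opposite and the difference not called (1.09, adjusted p = 0.408). The PFC was lower than the hippocampus and the striatum. Over the 6 pairs of regions, the genes called were Ttr and Kl between hypothalamus and hippocampus (63.6% of all genes were called), Folr1 and Clic6 between hypothalamus and PFC (65.3%), Clic6 and Cldn5 between hypothalamus and striatum (64.7%), Ttr, Kl, Folr1 and Clic6 between hippocampus and PFC (42.9%), Kl, Clic6 and Cldn5 between hippocampus and striatum (41.5%), and Ttr, Folr1 and Cldn5 between PFC and striatum (44.8%). With animals as a block Cldn5 was not called between PFC and striatum (0.68, adjusted p = 0.421), while Cldn5 between hypothalamus and PFC and Ttr between hypothalamus and striatum were. In SAL-SAL alone Cldn5 was not called between PFC and striatum (2.85, adjusted p = 0.0747), nor Folr1 between hippocampus and PFC (2.48, adjusted p = 0.157). The Folr1 calls rest on few reads, 58 over all hypothalamic libraries, 222 over the hippocampal, 121 over the striatal and 10 over the PFC libraries. Enpp2, Flt1 and Pecam1 were called in no pair, and the Enpp2 medians lay between 46.8 and 63.7 CPM.

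The next question was whether perinatal morphine changed these genes in the hypothalamus without a challenge. Of the 8 genes, 3 choroid plexus genes fell in MOR-SAL relative to SAL-SAL at an adjusted p under 0.05 (edgeR quasi-likelihood, Benjamini-Hochberg over all genes), where 1.44% of the 28859 genes tested were called and 1.17% were lower. Ttr ranged from 0 to 254 CPM in SAL-SAL (median 2.96, detected in 8 of 11) and from 0 to 3.25 CPM in MOR-SAL (median 0.875, detected in 9 of 14). The groups overlapped, but 5 of the 11 SAL-SAL libraries exceeded every MOR-SAL library. The fitted difference was −6.02 (SE 0.96, adjusted p = 2.41e-04). When limma-voom was fitted with a litter correlation, none of the 3 was called, at −3.20 for Ttr (adjusted p = 0.335), −2.27 for Folr1 (adjusted p = 0.192) and −0.56 for Enpp2 (adjusted p = 0.698).

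These 5 SAL-SAL libraries came from animals 4-1 (254 CPM), 1-3 (206 CPM), 11-1 (109.5 CPM), 3-2 (79.5 CPM) and 1-1 (23.6 CPM, low in depth), where the first number is the litter. The other 6 SAL-SAL libraries had at most 2.96 CPM, so the mean was set by a subset from litters 1, 3, 4 and 11. Litters 1, 3 and 11 held such values in every SAL-SAL library they gave, while in litter 4 animal 4-3, also low in depth, had no read of Ttr. Library 1-3 alone held 48.0% of the arm's 3477 reads. In bulk nuclei, fewer cells of a type and less RNA per cell cannot be told apart.

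**Figure D2:**
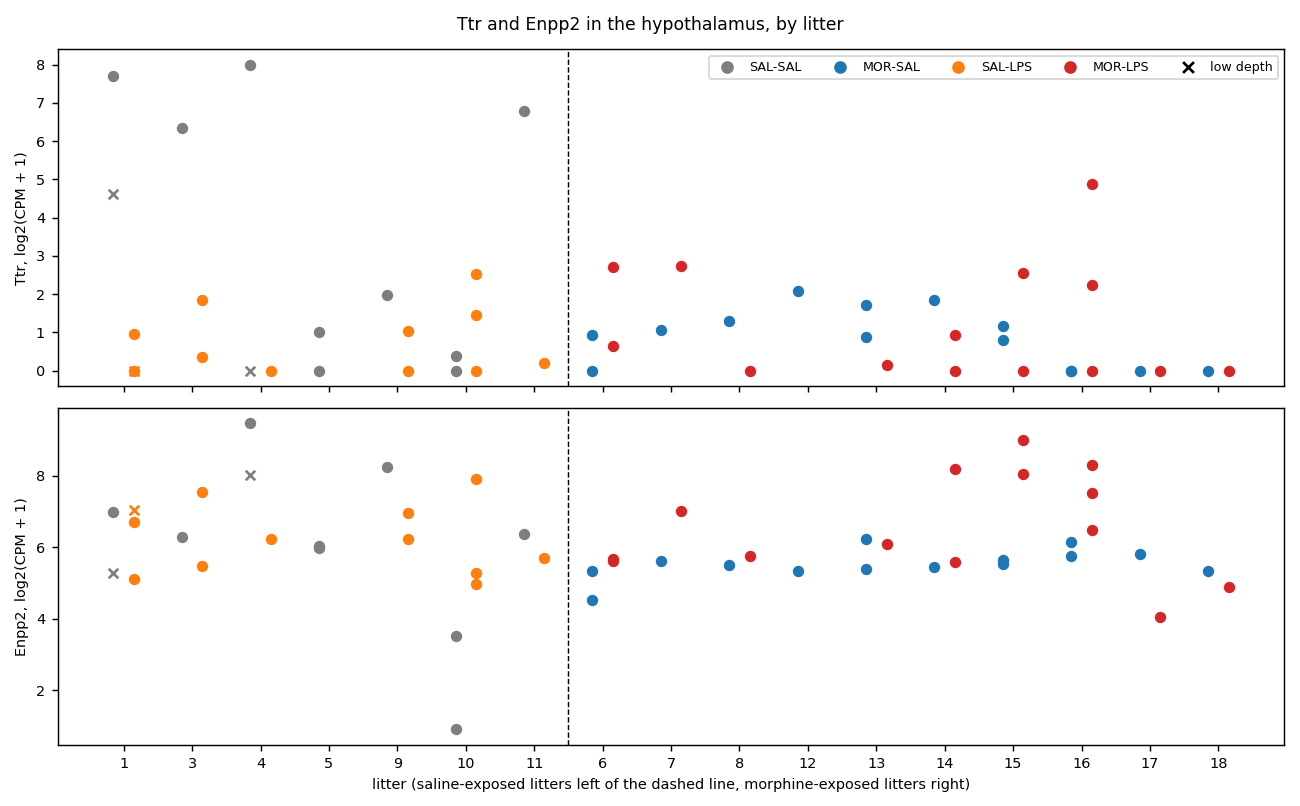
Hypothalamic Ttr and Enpp2 by litter and arm on a log2(CPM + 1) scale, where each point is 1 library, crosses are libraries low in depth and the dashed line parts litters exposed to saline (left) and morphine (right). The high SAL-SAL values of Ttr, from 23.6 to 254 CPM, come from litters 1, 3, 4 and 11, and the MOR-SAL libraries stay at or below 3.25 CPM.

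Folr1 had 44 reads in 5 of the 11 SAL-SAL libraries and 3 reads in 1 of the 14 MOR-SAL libraries, which is a ratio of 0.0444 per total count (exact 95% interval of counting error 0.00882 to 0.139). The SAL-SAL values reached 3.88 CPM in animal 4-1, 2.78 CPM in 10-3 and 2.22 CPM in 11-1, and 3 SAL-SAL libraries exceeded the only positive MOR-SAL library. Animals 4-1 and 11-1 were among those high in Ttr, whereas 10-3 had no Ttr read. The fitted difference was −4.70 (SE 1.11, adjusted p = 0.0181), and its size depends on the prior count.

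Enpp2 ranged from 0.867 to 711 CPM in SAL-SAL (median 76.7) and from 22.1 to 73.8 CPM in MOR-SAL (median 44.9). SAL-SAL was the wider group, with 6 of 11 libraries above every MOR-SAL library and 2 below all of them. The difference was −1.55 (SE 0.42, adjusted p = 0.0371), and without animal 4-1, which had the highest value, it was −1.16 (adjusted p = 0.102). Without the libraries whose Y-linked genes went against their labels it was −1.43 (adjusted p = 0.0833), and Folr1 had an adjusted p of 0.0566, while Ttr was still called at −6.19.

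The other genes did not pass the test in this comparison. Kl had a median of 7.71 CPM in SAL-SAL (0 to 43.9) and 2.86 CPM in MOR-SAL (0 to 13.9), with a log2 difference of −1.42 (adjusted p = 0.310). Clic6 had medians of 1.48 and 3.00 CPM and a difference of 0.23. The endothelial genes differed by −0.50 (Cldn5), −0.82 (Flt1) and −0.53 (Pecam1), each with an adjusted p over 0.7.

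Marker lists of the tissues around the punch were read beside these genes. Of 15 other choroid plexus genes, among them the transcription factor Otx2 and the water channel Aqp1, none was called (median −0.47 beside 0.07 over all genes, edgeR), although each had a read in at least 1 hypothalamic library and Aqp1 and Cldn2 were at 0 in 41 and 40 of 51. Their summed level ran from 24.8 to 214 CPM in SAL-SAL (median 110) and from 68.1 to 112 CPM in MOR-SAL (median 80.7), and much of it came from Prlr, the prolactin receptor that hypothalamic neurons also make (median 36.6 CPM over 51 libraries). Among 19 other endothelial genes 1 was called lower, the adhesion receptor Adgrl4 (−4.18, SE 1.11, adjusted p = 0.0365), with a list median of −0.10.

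Most genes of the thalamus and habenula moved in the same direction as Ttr. Of 10, 5 were called lower in MOR-SAL and 2 had a positive difference that was not called, with a list median of −1.69. Their summed level was 118 to 3795 CPM in SAL-SAL (median 784) against 114 to 1204.5 CPM in MOR-SAL (median 237). The libraries highest in this sum, 10-1, 10-3 and 5-3, had 0.295, 0 and 0 CPM of Ttr. All 8 oligodendrocyte genes had a negative difference, 7 at an unadjusted p under 0.05 and 1 called (Mobp, list median −1.60). In this comparison 17.3% of all genes had such a p, as did 3 of the 15 other choroid plexus genes. The oligodendrocyte sums were 74.6 to 7769.5 CPM in SAL-SAL (median 356) and 80.0 to 707 CPM in MOR-SAL (median 360). A negative difference was found for 7 of 8 astrocyte genes, 1 of them called (Slc1a2, list median −0.91). Of 7 leptomeningeal genes 6 had a negative difference, 3 of the list had an unadjusted p under 0.05 and none was called by edgeR (list median −1.40). Their sums were 0 to 104 CPM in SAL-SAL (median 6.79) and 1.84 to 13.3 CPM in MOR-SAL (median 8.87). Of 7 ependymal genes 4 had a positive difference, 3 of the list had an unadjusted p under 0.05 and none was called by edgeR (list median 0.80). A hypothalamic median of 0 CPM was found for 6 of these ependymal genes. The part of these tissues in the differences of Ttr, Folr1 and Enpp2 was not tested.

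For the adult challenge, the animals exposed to saline were compared first. SAL-LPS libraries had 0 to 4.77 CPM of Ttr (median 0.219, detected in 7 of 12) against the same 11 SAL-SAL libraries as above, and 5 of the SAL-SAL libraries exceeded all of them. Ttr was lower by a log2 difference of −5.88 (SE 1.07, adjusted p = 0.00906) and was alone among the 8 genes in being called, where 0.246% of all genes were called and 0.177% were lower. This comparison shares its control libraries with the one for morphine, so the 2 differences of Ttr are not independent. In limma-voom with a litter correlation it was −2.40 (adjusted p = 0.744). With litter as a block the difference was −5.67 (adjusted p = 0.0673), and without litter 3 the adjusted p was 0.0794.

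Folr1 had 10 reads in 1 of 12 SAL-LPS libraries, a ratio of 0.124 to SAL-SAL (exact 95% interval 0.0557 to 0.250) with a fitted adjusted p of 0.115. In the hippocampus the same comparison went the other way, 150 reads against 13 (ratio 11.2, 6.38 to 21.6, fitted adjusted p = 0.338). In the striatum it was 6 against 32 (ratio 0.136, 0.0465 to 0.330, fitted adjusted p = 0.492) and in the PFC 0 against 1. Kl ranged from 0 to 6.57 CPM in SAL-LPS (median 2.25), with 6 SAL-SAL libraries above that range, and had a difference of −1.68 (adjusted p = 0.304). Enpp2 had medians of 76.7 CPM in SAL-SAL and 74.0 CPM in SAL-LPS, which did not differ beyond their spread (−0.63, adjusted p = 0.586), nor did any endothelial gene. Of 12 genes that activated endothelium raises, 1 was higher, Lcn2, the siderophore-binding lipocalin (5.63, SE 1.22, adjusted p = 0.0322), and of the thalamic and habenular genes 2 were called lower.

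In the animals exposed to morphine, LPS was accompanied by a higher level of Enpp2. Its values were 15.6 to 511 CPM in MOR-LPS (median 77.7) and 22.1 to 73.8 CPM in MOR-SAL (median 44.9), with 7 of 14 MOR-LPS libraries above every MOR-SAL library and 1 below. The log2 difference was 1.50 (SE 0.40, adjusted p = 0.0157), the only call among the 8 genes, where 6.27% of all genes were called and 4.1% were higher. With litter as a block it was 1.17 (adjusted p = 0.0620), and it was not called without litter 14, 15 or 16 (adjusted p of 0.0619, 0.0787 and 0.0534). The oligodendrocyte genes rose in the same comparison, 5 of 8, with a list median of 1.75 and a summed level of 231 to 6987 CPM in MOR-LPS (median 555). Library 15-1 had both the highest Enpp2 and the highest oligodendrocyte sum of the arm. The part of oligodendrocyte RNA in the Enpp2 difference was not tested.

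Cldn5 was close to the threshold in this comparison. It had 129 reads in 9 of 14 MOR-LPS libraries (0 to 4.23 CPM, median 1.35) and 19 reads in 5 of 14 MOR-SAL libraries (0 to 1.23 CPM, median 0), a ratio of 6.51 (exact 95% interval of counting error 4.00 to 11.2). Of the MOR-LPS libraries, 7 of 14 lay above every MOR-SAL library. Across libraries the difference was 3.12 (SE 1.03, adjusted p = 0.0531), and with the size factors of DESeq2 in place of TMM it was called. Flt1 and Pecam1 differed by 0.15 and 0.09, each with an adjusted p over 0.9.

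Other endothelial genes did rise with LPS after morphine, 4 of 19 with a list median of 0.97 beside 0.00 over all genes. They were the surface antigen Ly6c1 (6.24, SE 1.18, adjusted p = 0.00122), the lipid transporter Mfsd2a (2.61, SE 0.62, adjusted p = 0.00876) and the endothelial transcription factors Erg (3.34, SE 0.89, adjusted p = 0.0192) and Sox17 (2.78, SE 0.78, adjusted p = 0.0255). Their list summed to 55.0 to 246 CPM in MOR-LPS (median 113) and 54.0 to 122 CPM in MOR-SAL (median 85.1).

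Of the 12 genes of activated endothelium, 8 rose, with a list median of 2.97. The 4 with the smallest adjusted p were Lcn2 (6.37), the NF-kB inhibitor Nfkbia (1.54), the chemokine Cxcl1 (4.49) and the transcription factor Cebpd (3.42). Genes of glia and other vessel cells were called higher as well, 5 of 8 astrocyte, 4 of 8 microglial, 2 of 9 mural and 2 of 7 leptomeningeal genes, while none of 15 other choroid plexus genes and none of 10 thalamic and habenular genes was called by edgeR. Of 22 tested partners of the 8 genes, such as transporters and receptors for their ligands, 2 rose, the thyroid hormone transporter Slco1c1 (2.97, adjusted p = 0.0157) and the thyroid hormone receptor Thra (0.51, adjusted p = 0.0432).

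**Figure D3:**
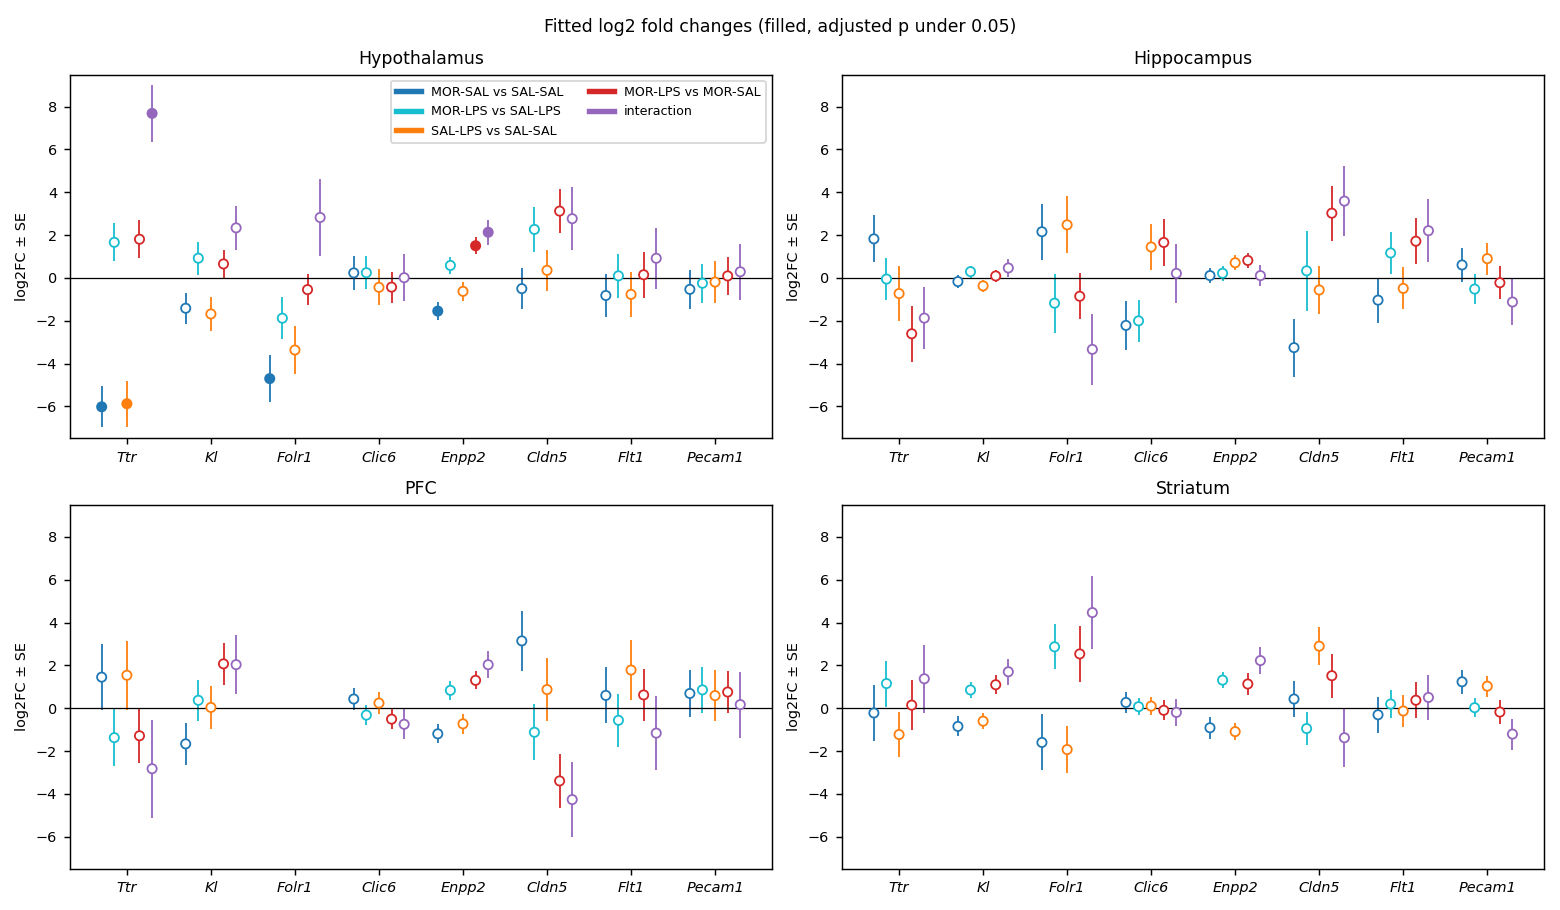
Fitted log2 difference of each gene in each comparison and region from edgeR, where bars are ± SE, colours mark the comparison and filled points have an adjusted p under 0.05. Filled points lie in the hypothalamus only, for Ttr, Folr1 and Enpp2.

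Between the exposures under LPS, none of the 8 genes was called in the hypothalamus by edgeR or DESeq2, where 1.03% of all genes were called, and 1 of the 8, Cldn5, had an unadjusted p under 0.05, as did 13.9% of all genes. Its difference of MOR-LPS from SAL-LPS was 2.27 (adjusted p = 0.313), from 129 reads against 19, a ratio of 7.76 (4.78 to 13.3 for counting error), with 7 of 14 MOR-LPS libraries above all SAL-LPS libraries. Ttr reached 28.5 CPM in MOR-LPS, in animal 16-4, and 4.77 CPM in SAL-LPS, with a difference of 1.66 (adjusted p = 0.420).

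The response to LPS differed between the exposures for Ttr and Enpp2, 2 of the 8 genes, where 3.8% of all genes were called and 2.2% had a positive interaction. The interaction was 7.68 for Ttr (SE 1.31, adjusted p = 0.00154) and 2.13 for Enpp2 (SE 0.59, adjusted p = 0.0245). It uses the same SAL-SAL libraries as the comparisons above, and for Ttr it joins a difference of −5.88 after saline with one of 1.81 after morphine (adjusted p = 0.222). With litter as a block, Ttr had an interaction of 6.96 (adjusted p = 0.0155) and Enpp2 of 1.33 (adjusted p = 0.436). Neither was called in limma-voom with a litter correlation, at 2.56 for Ttr (adjusted p = 0.725) and 1.04 for Enpp2 (adjusted p = 0.703), nor in males alone, at 6.93 (adjusted p = 0.147) and 1.05 (adjusted p = 0.553). For Enpp2 it was 1.74 (adjusted p = 0.0685) without animal 4-1 and 1.92 (adjusted p = 0.0624) without the libraries whose Y-linked genes went against their labels.

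In the same interaction 5 of 8 oligodendrocyte, 4 of 10 thalamic and habenular, 3 of 8 astrocyte and 1 of 8 microglial genes were called positive, and 1 of 15 other choroid plexus genes, the coagulation factor F5 (5.98, SE 1.71, adjusted p = 0.0310). Of the activated endothelial genes, Cxcl1 (5.47) and Nfkbia (1.55) were called positive. None of the other endothelial genes was called by edgeR.

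In the hippocampus, PFC and striatum, edgeR called none of the genes in any of the 5 comparisons, and DESeq2 called Enpp2 in the striatal interaction alone. Folr1 was not tested in the PFC, where 10 reads did not pass the filter. In the order MOR-SAL against SAL-SAL, MOR-LPS against SAL-LPS, SAL-LPS against SAL-SAL, MOR-LPS against MOR-SAL and interaction, the share of all genes called was 0%, 2.73%, 2.55%, 0.467% and 2.35% for the hippocampus. For the PFC it was 0%, 0.0046%, 0%, 0.0184% and 1.78%, and for the striatum 0%, 0%, 0.0128%, 1.39% and 0.00854%. At an unadjusted p under 0.05 the 8 genes gave, in that order, 1, 1, 0, 2 and 2 calls among hippocampal libraries, 1, 0, 0, 3 and 2 among PFC libraries (7 genes tested) and 1, 3, 3, 2 and 3 among striatal ones. Of all genes, 10.3% to 17.5% of those tested in the hippocampus, 10.1% to 13.2% in the PFC and 11.2% to 17.8% in the striatum had such a p.

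Ttr was as uneven in these regions as in the hypothalamus, but its high values were found in every arm of the hippocampus and striatum. In the hippocampus the highest values were 133 CPM in SAL-SAL, 477 in MOR-SAL, 241 in SAL-LPS and 214 in MOR-LPS, around medians of 7.15, 3.21, 1.25 and 4.48 CPM. In the striatum they were 157, 145, 54.3 and 118 CPM, around medians of 3.57, 1.43, 1.34 and 3.90 CPM. The arms overlapped throughout.

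The baseline difference of Ttr between MOR-SAL and SAL-SAL was 1.82 (adjusted p = 0.640) among hippocampal, 1.45 (adjusted p = 0.973) among PFC and −0.22 (adjusted p = 0.988) among striatal libraries. The hypothalamic difference departed from their mean by −7.21 (SE 1.47, adjusted p = 0.00126), and that of SAL-LPS from SAL-SAL departed by −6.20 (SE 1.53, adjusted p = 0.0148). Of the 8 genes, Ttr alone was called in either, where 2.29% and 1.57% of all genes were called and 1.25% and 0.751% were lower. Neither difference was called in limma-voom with a correlation within animals (−3.23, adjusted p = 0.322, and −2.29, adjusted p = 0.779). That fit changed the method along with the correlation, so their parts cannot be told apart.

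Enpp2 had its smallest adjusted p outside the hypothalamus in the interactions, 2.03 in the PFC (adjusted p = 0.0700) and 2.23 in the striatum (adjusted p = 0.0800). In the PFC its medians were 34.3 CPM in SAL-SAL and 56.5 CPM in SAL-LPS, and after morphine 37.0 CPM in MOR-SAL and 91.4 CPM in MOR-LPS. The fitted PFC difference of SAL-LPS from SAL-SAL had the opposite sign from the medians (−0.73, SE 0.47, not called), with 1 SAL-SAL library at 475 CPM, and the interaction includes it. In the striatum they were 64.2 CPM and 39.2 CPM without and with LPS after saline, and 33.7 CPM and 68.1 CPM after morphine. All arms overlapped. In the PFC interaction 3 of the 8 oligodendrocyte genes were called higher, among them Mag and Ermn.

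Cldn5 was sparse everywhere. In the striatum it had 1 read in SAL-SAL and 16 in SAL-LPS, a ratio of 11.6 (1.80 to 487 for counting error) with a fitted adjusted p of 0.136. In the hippocampus 95 reads were counted in 4 of 16 MOR-LPS libraries, 75.8% of them in 1 library, and 4 reads in MOR-SAL. Other counts went the opposite way, with 21 PFC reads in MOR-LPS against 39 in MOR-SAL (ratio 0.422, 0.236 to 0.735 for counting error, fitted adjusted p = 0.178) and 39 hippocampal reads in SAL-LPS against 64 in SAL-SAL (ratio 0.594, 0.388 to 0.898, fitted adjusted p = 0.877).

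Among the other genes named here by list, the tight junction gene Cldn2 of the choroid plexus was lower in hippocampal SAL-LPS than in SAL-SAL (−4.11, SE 0.99, adjusted p = 0.0277) with an interaction of 5.54 (SE 1.28, adjusted p = 0.0147). The leukocyte adhesion gene Selp (4.20, adjusted p = 0.0323) and Slco1c1 (2.24, adjusted p = 0.0435) were higher in hippocampal MOR-LPS than in SAL-LPS, and Selp had an interaction in the PFC (6.42, adjusted p = 0.0321). In the striatum Lcn2 was higher with LPS after saline (5.64, adjusted p = 0.00553) and after morphine (5.93, adjusted p = 0.00576). After morphine it was joined there by Cebpd (6.93), the adhesion molecule Icam1 (4.64) and Mfsd2a (2.32). All of these list calls come from the main edgeR fit alone, and other fits were not read for them.

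Enpp2 moved with oligodendrocyte and other glial genes across libraries. Over the libraries not low in depth, which share depth and dissection, its correlation with the summed oligodendrocyte level on the log2(CPM + 1) scale was 0.85 for hypothalamic (n = 48), 0.58 for hippocampal (n = 53), 0.59 for PFC (n = 45) and 0.91 for striatal libraries (n = 54). Within arms it was 0.84, 0.59, 0.53 and 0.89. Without the libraries whose Y-linked genes went against their labels it was 0.85, 0.55, 0.59 and 0.91. The r of Enpp2 with the astrocyte sum was 0.67, 0.45, 0.82 and 0.80 in the same order of regions, with the microglial sum 0.68, 0.37, 0.65 and 0.84, and with the endothelial sum 0.66, 0.38, 0.33 and 0.50. Each of the 8 oligodendrocyte genes had a positive correlation in each region. In the hypothalamus the gene most like Enpp2 was Cnp, a myelin enzyme (r = 0.88), and in the striatum Mog, a myelin glycoprotein (r = 0.92). In the hippocampus the nearest gene was Grm3 (r = 0.78) and in the PFC Dock9 (r = 0.82), neither of them in the oligodendrocyte list. These nearest genes fall outside the rule for naming genes and were chosen after their values were seen. With the summed level of neuronal genes the r was −0.69 in the striatum, −0.18 in the PFC, −0.04 in the hypothalamus and 0.30 in the hippocampus.

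Clic6 moved with genes of striatal neurons in some regions. In the hippocampus it was most like Adora2a and Penk, the precursor of enkephalin (both r = 0.92). Their r with Clic6 was 0.86 and 0.78 in the striatum, but 0.38 and 0.57 in the PFC and 0.26 and 0.35 in the hypothalamus, while the synaptic vesicle gene Sv2c had an r of 0.83 in the PFC, 0.91 in the striatum and 0.63 in the hippocampus but 0.11 in the hypothalamus. These genes too were chosen after their values were seen. Penk had medians of 286 CPM in the striatum and 436 CPM in the PFC against 28.9 CPM in the hippocampus, and it reached 917 CPM in a hippocampal library. The regions with high Clic6 were thus the ones with high Adora2a and Penk, and the part of striatal neurons in the hippocampal values was not tested.

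**Figure D4:**
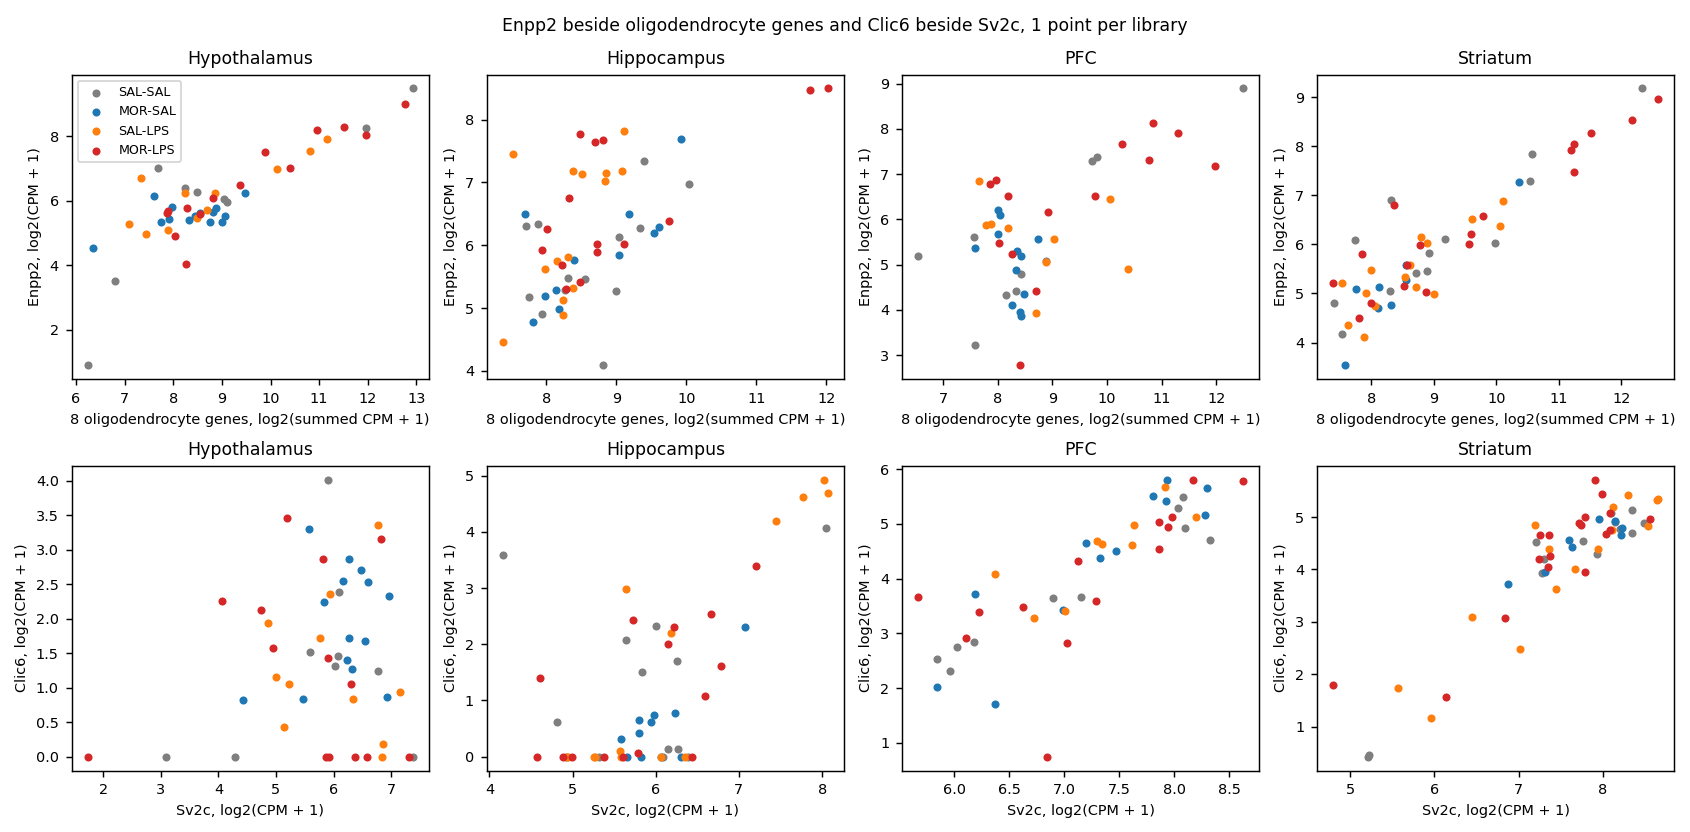
Enpp2 against the summed level of 8 oligodendrocyte genes and Clic6 against Sv2c, both as log2(CPM + 1), where each point is 1 library not low in depth. Enpp2 rises with the oligodendrocyte sum in each region (r from 0.58 to 0.91), and Clic6 with Sv2c in the PFC, striatum and hippocampus (r from 0.63 to 0.91) but little in the hypothalamus (r = 0.11).

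The genes most like Ttr differed by region. In the hypothalamus they were Tmem72 (r = 0.65), a membrane protein of choroid plexus epithelium, the leptomeningeal sulfate transporter Slc13a4 (0.61), Wdr86 (0.59), the transporter Abcc2 (0.56) and the pericyte gene Rgs5 (0.54), over 48 libraries. Of the 15 other choroid plexus genes 13 correlated positively with Ttr there, with a median r of 0.25 and the highest for F5 (0.65). Their sum had an r of 0.39 with Ttr there but a rank correlation (rho) of 0.13. The leptomeningeal sum had an r of 0.43 and a rho of 0.38. In the hippocampus, over 53 libraries, the most like were Trh, the precursor of thyrotropin-releasing hormone (0.84), Penk (0.72), the forebrain transcription factor Six3 (0.70), the receptor Gpr6 (0.67) and Clic6 (0.63). In the PFC they were A830052D11Rik, Glp1r, Ebf2, Tspan6 and Grid2ip, with r from 0.53 to 0.56. In the striatum they were Chst2, Atp2a2, Cplx3, Zfand5 and Tmem47, with r from 0.54 to 0.60. Against Ttr, the other choroid plexus genes gave a median r of 0.24, 0.03 and 0.17 in the hippocampus, PFC and striatum.

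Ttr was compared between libraries with and without a Folr1 read. In the striatum the median of Ttr was 36.2 CPM in the 18 libraries with a Folr1 read and 0.994 CPM in the 36 without, and in the hippocampus it was 38.7 CPM in 12 and 1.43 CPM in 43. In the hypothalamus the medians were 2.77 CPM in 8 and 0.730 CPM in 43 libraries. In the PFC they were 0.504 CPM in 3 and 0.154 CPM in 45 libraries. Of the libraries with at least 20 CPM of Ttr, 11 of 14 had a Folr1 read in the striatum, 9 of 17 in the hippocampus, 3 of 6 in the hypothalamus and 0 of 2 in the PFC.

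Libraries with at least 20 CPM of Ttr numbered 39 in all. There were 17 of 55 in the hippocampus, 14 of 54 in the striatum, 6 of 51 in the hypothalamus and 2 of 48 in the PFC. By arm, in the order given above for the library numbers, they were 5, 5, 3 and 4 in the hippocampus and 4, 1, 3 and 6 in the striatum, but 5, 0, 0 and 1 in the hypothalamus. They came from 35 animals, of which 31 were high in 1 region only and 4 in 2 regions, and each of the 35 had libraries of at least 2 regions.

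Among genes with a mean of at least 1 CPM, Cldn5 was most like Cebpd (r = 0.63), S100a16, Kirrel2, Mrps34 and Fzd7 (0.60 to 0.62) in the hypothalamus. In the hippocampus the nearest was the complement gene C1qc of microglia (0.69), followed by Il12rb1, Ddah2, Scrg1 and Tnni1 (0.64 to 0.67). Of the 19 other endothelial genes 17 correlated positively with Cldn5 in the hypothalamus, with a median r of 0.26 and the highest for the angiopoietin-pathway receptor Tie1 (0.65). The summed endothelial level had an r of 0.39 with Cldn5, the astrocyte sum 0.52, the microglial sum 0.42, the oligodendrocyte sum 0.39 and the leptomeningeal sum 0.34. Pecam1 correlated positively with 11 of the 19 endothelial genes there (median r of 0.04). In the PFC (Slc12a7, Gm10220, 1700112J16Rik and Slc13a4, 0.62 to 0.66) and the striatum (Gm26798, 2900052L18Rik, Ccdc94, Atad2 and Peli1, 0.40 to 0.50) Cldn5 had reads in 10 of 48 and 14 of 54 libraries, too few for a pattern to be read.

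Because the same animal gave several regions, the levels could be compared within animals. Of 24 relations (Ttr, Kl, Clic6 and Enpp2 over 6 pairs of regions), 1 passed a permutation test after Benjamini-Hochberg adjustment, Enpp2 between hypothalamus and striatum. Its r was 0.627 over 34 animals of 17 litters (permutation p = 5e-05, adjusted p = 0.0012) and its rho 0.697 (permutation adjusted p = 0.00048), with an r of 0.665 without the 2 animals farthest from the median, 0.613 within arms and 0.623 (n = 31) without the libraries whose Y-linked genes went against their labels. Animals of 1 litter are not independent, so this p counts animals as if they were. The other 5 pairs for Enpp2 had an r from 0.0958 to 0.467 with permutation adjusted p from 0.0836 to 0.745. For Ttr, no pair passed, and the r between hypothalamus and hippocampus was −0.0739 (rho −0.0379, permutation adjusted p = 0.745) over 34 animals.

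**Figure D5:**
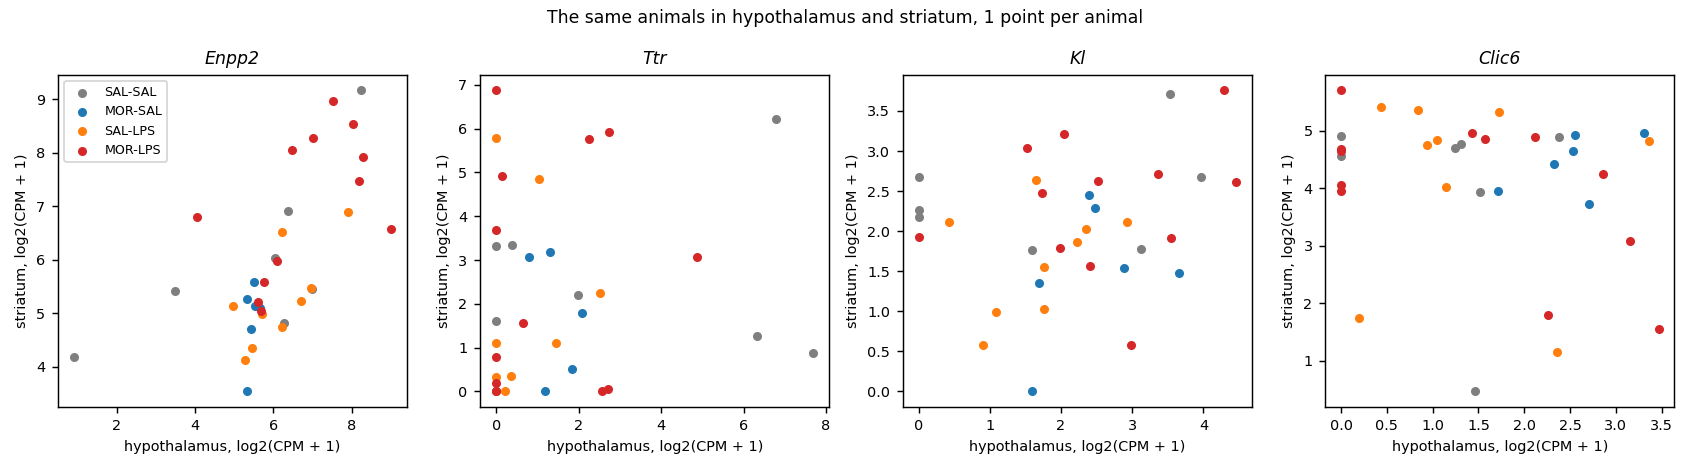
Level of Enpp2, Ttr, Kl and Clic6 in the hypothalamus (x axis) and striatum (y axis) of the same animal as log2(CPM + 1), where each point is 1 animal. Enpp2 in the hypothalamus rises with Enpp2 in the striatum (r = 0.627, n = 34), and for the other 3 genes the relation did not pass the permutation test.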

How the data were processed

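RNA of NeuN+ nuclei from 4 regions was sequenced after a modified Smart-seq3 protocol. The authors trimmed reads with Trim Galore 0.6.7, aligned them to mm10 with STAR 2.7.10a and counted them per gene (GENCODE M25), with HTSeq 0.12.4 as a check. The authors deposited raw counts of 46403 genes per region and the same values as CPM of 46366 genes without mitochondrial genes, which could be recomputed from the counts. Groups, litters and animals were read from the labels.

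Region by region, genes whose counts summed to over 10 entered edgeR 4.0.16 (R 4.3.3), with TMM scaling, arm and sex as terms and the quasi-likelihood test, and p-values were adjusted over all genes tested. Regions were compared in 1 fit over 22230 genes with reads in each region. Values are given as CPM, and correlations use log2(CPM + 1). Alternatives used limma 3.58.1, DESeq2 1.42.0 and statmod 1.5.0, and exact intervals and permutation tests (100000 resamples) used scipy 1.17.1. The alternatives were DESeq2, its size factors in edgeR, no scaling beyond library size, filterByExpr or no filter, no sex term, each sex alone, litter or animal as a block or correlation, limma on log2(CPM + 1) or log2(CPM + 0.1), removal of low-depth libraries, leaving out, in the hypothalamic fits, each litter and each SAL-SAL or MOR-SAL library, and, added after the data were seen, removal of the 9 libraries that mismatched the labelled sex by Y-linked genes. The fits were tested on simulated data.

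The genes and marker lists were chosen with earlier results of these data known. Named beside the 8 genes are the 5 genes most correlated with Ttr and with Cldn5 in each region (mean CPM of at least 1, of which 1 is not reported here) and the called genes of the lists of other choroid plexus, other endothelial, activated endothelial and partner genes, at most 4 each.

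An animal number shared by 2 regions marks the same animal per the labels, and the deviations of such libraries from their arm had mean correlations of 0.0254 to 0.0900 over the 6 pairs of regions against −0.00386 to 0.00297 for different animals. No 2 libraries were identical. Positions are from GENCODE M21. Some glial and other list genes (Gfap, P2ry12, Nefl, Kcnj13, Lpar6) are listed at 0 in each library of the other 3 regions and were counted in the hypothalamus only, which touches none of the 8 genes. No sequencing batch is given in the labels.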

Additional observations from a re-analysis of the deposited data

Results flagged for a closer look

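In the 24 sets of 1 gene in 1 arm with 4 to 10 libraries, 8 had a library far from the others by Dixon's ratio. Chance gives about 1 in 20 only for normally distributed values, which groups with many zeros do not hold. In 3 of the 8 all other libraries were at 0, where any read stands apart. In PFC SAL-SAL, Ttr was 7.84 CPM (108 reads) in animal 9-0 with the next at 0.213 CPM, and Folr1 was 0.0728 CPM from 1 read in animal 4-3. In PFC SAL-LPS, Cldn5 was 2.67 CPM (13 reads) in animal 10-0 with the next at 0.974 CPM, and Flt1 was 8.52 CPM (79 reads) in animal 10-2 with the next at 1.38 CPM. In striatal MOR-SAL, animal 17-2 stood apart in both Ttr, at 144.6 CPM (1142 reads) with the next at 8.10 CPM, and Folr1, at 0.507 CPM (4 reads). In the same arm Kl was 0.0 CPM in animal 15-0 with the next at 1.56 CPM, and Cldn5 was 0.0930 CPM from 1 read in animal 15-2.

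A difference between groups was called for 4 results. In the hypothalamus the response to LPS differed between the exposures for Ttr (7.68, edgeR adjusted p = 0.00154) and Enpp2 (2.13, edgeR adjusted p = 0.0245). With litter as a block Enpp2 was not called (edgeR adjusted p = 0.436), and limma-voom with a litter correlation called neither. For Ttr the hypothalamus differed from the other regions in MOR-SAL against SAL-SAL (−7.21, edgeR adjusted p = 0.00126) and in SAL-LPS against SAL-SAL (−6.20, edgeR adjusted p = 0.0148). Neither regional difference was called in limma-voom with a correlation within animals (−3.23, adjusted p = 0.322, and −2.29, adjusted p = 0.779). As limma-voom was not fitted without that correlation, the parts of method and correlation cannot be told apart. All 4 share the hypothalamic SAL-SAL libraries.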

How the results depend on the processing

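Ttr between hypothalamus and hippocampus was −2.47 and reversed to 1.09 (not called) among SAL-SAL libraries alone, and no other called result changed direction. In hypothalamic MOR-SAL against SAL-SAL, 3 genes were called, 1 (Ttr) after filterByExpr, in males alone or without libraries whose Y-linked genes went against the label (an alternative chosen after seeing the data), and 0 with a litter correlation in limma-voom or limma on log2(CPM + 1) or log2(CPM + 0.1). In SAL-LPS against SAL-SAL, 1 was called and 0 in those 3 limma fits or in females alone. In MOR-LPS against MOR-SAL, 1 was called, 2 with the size factors of DESeq2, and 0 in the limma fits or in either sex alone. In the interaction, 2 were called, 1 (Ttr) after filterByExpr or without those libraries, and 0 in the limma fits or in males alone. In the striatal interaction DESeq2 called 1 (Enpp2). Between hypothalamus and hippocampus 1 (Folr1) was called in SAL-SAL alone, and between hypothalamus and PFC 5 with library size as the only scaling, which moved the median of all genes from 0.16 to 0.44. The causes were not tested.

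Litter as a replicate block left 0 of 1 calls for SAL-LPS against SAL-SAL, 0 of 1 for MOR-LPS against MOR-SAL and 1 of 2 (Ttr) for the interaction, and a block of animals as a correlation in limma-voom left 0 of 1 for each difference between regions. A litter correlation in limma-voom left 0 of 3 for MOR-SAL against SAL-SAL, as above. As limma-voom was not fitted without a correlation, its part and that of the correlation cannot be told apart. Litter or animal as a fixed block changed no other count of calls by over 1.5 times. No paired fit exists for the exposure, since no litter holds both.

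Leaving out each of 17 litters and the 25 SAL-SAL and MOR-SAL libraries of the hypothalamus in turn gave 1 to 3 calls for MOR-SAL against SAL-SAL (1 without litter 6, 15 or 16), 0 to 2 for SAL-LPS against SAL-SAL (0 without litter 3, 2 without litter 11), 0 to 2 for MOR-LPS against MOR-SAL (0 without litter 14 or 15, 2 with Cldn5 without litter 3, 4 or 10 or animal 10-1, 10-3, 11-1 or 16-1) and 1 to 2 for the interaction (1 without litter 4, 9, 14 or 15 or animal 4-1). Among single genes, Folr1 was lost without litter 6, 10, 11, 15 or 16, and the baseline call of Enpp2 in 17 of 42 (litter 3, 4, 6, 7, 9, 12, 15, 16 or 18, or animal 4-1, 9-4, 7-2, 12-1, 15-0, 15-2, 16-3 or 18-0). Folr1 and Cldn5 rest on few reads.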
